A study of Mus musculus with 8 samples.

Results

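Expression of 10 genes for the synthesis of asparagine, of serine and of mitochondrial folate intermediates was examined in microglia, the macrophages that live in the brain. The genes are Asns for asparagine, Phgdh, Psat1 and Psph for serine, and Shmt1, Shmt2, Mthfd1, Mthfd1l, Mthfd2 and Aldh1l2 for folate metabolism. They were taken by gene symbol from a table of 19938 genes with a probe set of their own on the array. The only measured values in that choice are mean levels: where a gene has several probe sets, 1 is chosen by its mean, the highest over the 8 arrays. Each of the 10 genes had 1 probe set of its own, so none was picked in this way. The 10 genes were put together with results of this comparison already known, so their counts and p-values describe them and are not independent evidence about the pathway.

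Microglia came from brains of Swiss Webster mice at 17 weeks of age, 4 samples labelled MFP2 knockout and 4 controls labelled wild type, with every sample labelled female. Hsd17b4 encodes MFP2, which breaks down fatty acids in peroxisomes. The sources used here do not give the design of the knockout allele or the cells in which it acts. Cells high in CD11b and intermediate in CD45 were sorted, and 1 array was hybridised per sample. The labels number the samples 1 to 4 in each group without naming animals, and the spread behind each p-value is that between samples, which may be technical. The comparison asks how microglial gene expression differs when MFP2 is missing.

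Asparagine synthetase takes nitrogen from glutamine to turn aspartate into asparagine. Serine is built from a glycolytic intermediate by the enzymes Phgdh, Psat1 and Psph in turn, and serine hydroxymethyltransferases then pass a carbon from serine to folate, which leaves glycine. In mitochondria Mthfd2 and Mthfd1l carry that carbon on to formate, which leaves for the cytosol and feeds purine and thymidylate synthesis, while Aldh1l2 oxidises it to CO2. Several of these genes are known targets of ATF4, the transcription factor of the amino acid and mitochondrial stress response.

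RefSeq promoter windows, 250 bases before to 50 bases after a start, were held for 9 of the 10 genes, in 10 windows on the GRCm38.p6 build. The window of Aldh1l2 was not analysed here. The 120 bases before the start are shown for the 3 genes with the largest rise, because these moved furthest and Asns carries a match to the element that ATF4 binds together with C/EBP factors. Capitals mark matches on either strand to TGATGNAA, the core of that element, or to CCAAT, a general promoter box; the matches of these motifs do not overlap in the shown bases. Of the 2 windows of Psat1, the one further upstream is shown. All are written 5′ to 3′ in the direction of the gene, which is the minus strand for each.
Asns, chr6:7693210-7693329: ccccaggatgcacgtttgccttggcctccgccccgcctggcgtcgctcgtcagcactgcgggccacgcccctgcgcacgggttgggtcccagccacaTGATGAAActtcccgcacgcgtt
Psat1, chr19:15925060-15925179: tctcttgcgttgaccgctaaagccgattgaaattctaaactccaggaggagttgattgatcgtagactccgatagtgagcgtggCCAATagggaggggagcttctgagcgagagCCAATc
Mthfd2, chr6:83317605-83317724: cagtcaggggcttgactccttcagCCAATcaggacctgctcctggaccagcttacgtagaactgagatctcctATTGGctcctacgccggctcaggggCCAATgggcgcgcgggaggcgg

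TGATGNAA, searched on both strands, occurred in the window of Asns and in no other window of these genes, against 3.97% of all 32851 windows. In Asns it read TGATGAAA and began 23 bases before the start. CCAAT occurred in windows of 6 of the genes (Mthfd1, Mthfd2, Phgdh, Psat1, Psph and Shmt1), against 37.4% of all windows, and was present 3 times in the shown bases of Mthfd2. TGACNNNGC, the antioxidant response element, occurred in the windows of Asns, Phgdh and Psph, against 12.4% of all windows, and the E-box CACGTG in none of theirs, against 7.15%. A match is a stretch of letters and does not show binding. The lack of a match in a window of 300 bases does not show that a gene lacks the element elsewhere.

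Several arrays stood apart or went against a label. Hsd17b4 lay between 7.82 and 9.09 on the log2 scale in controls and between 4.76 and 7.20 in knockouts, with knockout 2 the highest of the latter. Control 1, labelled female, had Xist at 6.80 and the Y-linked Eif2s3y at 8.14. In the other arrays Xist was at 10.55 to 10.99 and Eif2s3y at 2.78 to 2.99, so control 1 alone went against its sex label. Control 3 was nearest to the knockout arrays at 5 of the 7 genes described below as risen. Among markers of other cells, 1 of 10 astrocyte genes (Gfap), 1 of 8 neuronal genes (Eno2), 1 of 6 oligodendrocyte genes (Mbp) and 1 of 6 endothelial genes (Flt1) were higher, and 2 of 7 border macrophage genes were higher and 4 lower. With 1 array left out, 1 or 2 of the border macrophage genes were higher and 2 to 5 lower, and by a plain two-sample test 0 were either; among the other 4 genes named here that test called Mbp alone. By limma 0 of 7 neutrophil and 0 of 5 lymphocyte genes passed (0 also at an unadjusted p under 0.05 and by the plain test). Without control 1, however, 2 of the neutrophil genes were lower, among them S100a9 by -0.77 (limma adjusted p = 0.0254), and without control 1, control 3 and knockout 2 together 4 were lower. Without control 3, 1 lymphocyte gene was higher. The mean log2 value of the neutrophil list spanned 7.69 to 10.42 in controls and 8.69 to 9.60 in knockouts. Its 2 brightest genes were well above that mean. S100a9 was at 10.00 to 12.52 in controls and 11.23 to 11.95 in knockouts, and S100a8 at 9.86 to 12.59 and 11.20 to 12.12. Of 9 microglial identity genes 7 were lower. The mean of the 9 was lower too, at 11.23 to 11.41 in knockouts against 11.68 to 11.90 in controls. With 1 array left out 6 or 7 of them were lower, and after quantile normalization or cyclic loess 8. By the plain test, and without control 1, control 3 and knockout 2 together, 5 were lower. In sorted populations fewer cells of a type and less RNA per cell cannot be told apart.

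In MFP2 knockout microglia 7 of the 10 genes were higher, 0 were lower and 3 did not pass the test. Asns rose most, 5.03-fold, followed by Psat1 (2.83-fold), Mthfd2 (2.16-fold) and Shmt2 (1.77-fold), with Phgdh, Aldh1l2 and Mthfd1l between 1.46-fold and 1.61-fold. Psph, Shmt1 and Mthfd1 had changes above 0 that did not pass. Genes were called by limma's moderated test, with p adjusted over all 19938 genes by the Benjamini-Hochberg method and a threshold of 0.05. Over all genes 5.38% were called higher and 4.17% lower, 9.55% in all. Every knockout array lay above every control array for 8 of the 10 genes, against 7.09% of all genes, and below for 0 of the 10, against 6.92%. The median log2 change of the 10 genes was 0.69 and that of all genes -0.02. For the 0 lower genes the count was also 0 at an unadjusted p under 0.05 and by a plain two-sample test. The number higher was 5 without control 1, control 2, control 3, control 4 or knockout 3, 6 without knockout 1 or knockout 4, and 7 without knockout 2. It was 7 without control 3 and knockout 2, 6 when control 1 was left out with them, and 4 by the plain two-sample test. Over all 19938 genes the number higher was 1073 with all arrays and 753 to 1162 with 1 array left out. It was 1026 and 649 with those 2 sets of arrays left out, and 377 by the plain test.

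**Figure D1:**
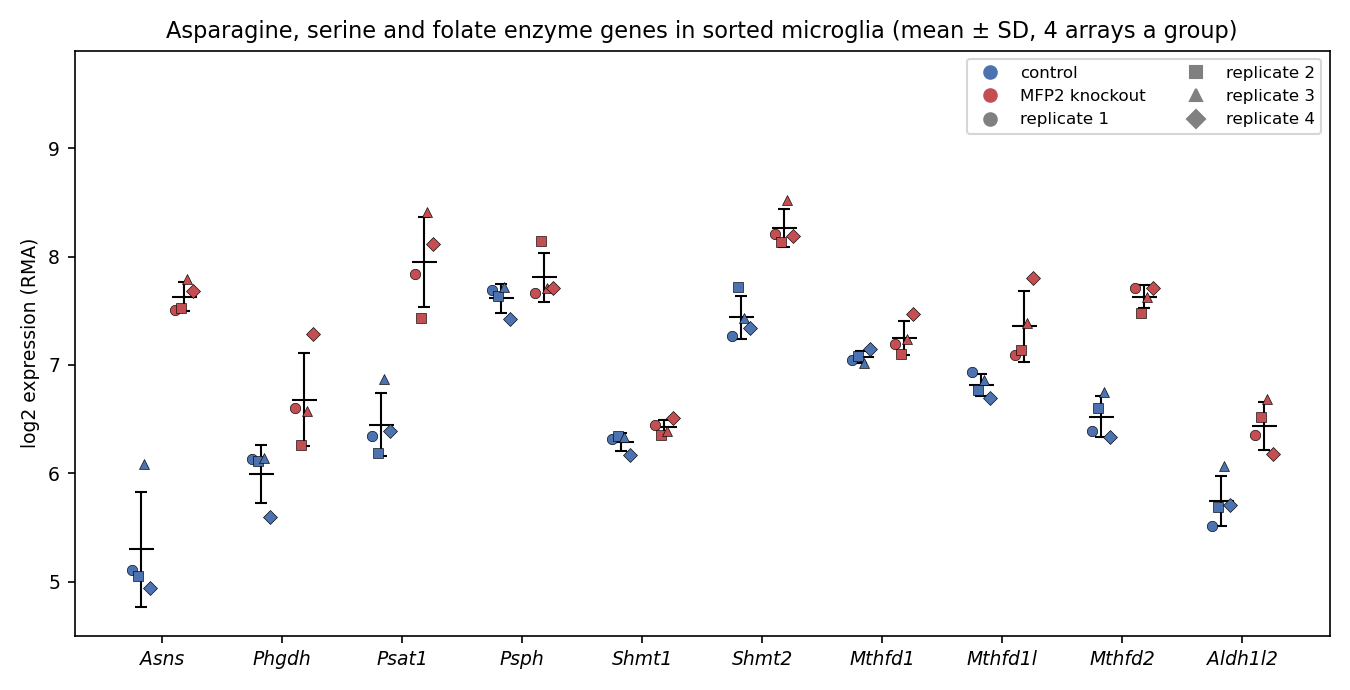
Log2 expression of the 10 genes in each array; blue points are controls, red points knockouts, the shape gives the replicate number, and bars show the mean ± SD of 4 arrays. Asns knockouts lie at 7.51 to 7.80 against 4.94 to 6.09 in controls, while the groups of Psph and Mthfd1 overlap.

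Asns, which makes asparagine, was at 5.11, 5.05, 6.09 and 4.94 in control 1 to control 4 and at 7.51, 7.53, 7.80 and 7.68 in knockout 1 to knockout 4. The knockout arrays lay close together (SD 0.13, n = 4), control 3 stood above the other controls, and the lowest knockout was still 1.42 above it. The change was 2.33 ± 0.21 (SE) on the log2 scale (limma adjusted p = 0.000169, n = 4 and 4), which ranked 17 of 19938 genes by size of rise. Without control 3 it was 2.59.

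Of the enzymes of serine synthesis Psat1 and Phgdh rose, and Psph did not pass. Psat1, the aminotransferase of the second step, was at 6.35, 6.19, 6.87 and 6.39 in control 1 to control 4 and at 7.84, 7.43, 8.41 and 8.11 in knockout 1 to knockout 4. All knockouts were above all controls, with control 3 the highest control and knockout 2 the lowest knockout. The rise was 2.83-fold, and the log2 change had an SE of 0.19 and a 95% confidence interval of 1.08 to 1.92 (limma adjusted p = 0.000625, n = 4 and 4). Phgdh, which commits phosphoglycerate to serine, was at 6.13, 6.11, 6.14 and 5.59 in controls and at 6.61, 6.26, 6.57 and 7.28 in knockouts, in the same order. The groups were 0.12 apart, control 4 was low and knockout 4 high. Its change of 0.69 ± 0.19 (SE) just passed (limma adjusted p = 0.0438, n = 4 and 4). It was not called when 1 array was left out, except knockout 2 (adjusted p = 0.0602 to 0.123), under an intensity trend with a robust prior (0.0563), with the replicate number as a block (0.0843) and by the plain test (0.220). A further probe set, annotated to Phgdh and Gm6756 together, was at 6.31 ± 0.36 (SD, n = 4) in controls and 6.85 ± 0.20 in knockouts and did not pass (limma adjusted p = 0.0638 over all 28874 probe sets). Phgdh's own probe set had an adjusted p of 0.0528 in that fit. Psph, the phosphatase of the last step, was at 7.69, 7.64, 7.71 and 7.42 in controls and at 7.67, 8.14, 7.71 and 7.71 in knockouts. The groups overlapped and knockout 2 alone stood high. Its change of 0.19 had a 95% confidence interval of -0.07 to 0.45 (limma adjusted p = 0.415, n = 4 and 4).

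Astrocytes also express the serine enzymes, so their markers are given beside these results. Gfap was 5.42 ± 0.43 (SD, n = 4) in controls and 6.69 ± 0.32 in knockouts, a rise of 1.28 ± 0.20 (SE, limma adjusted p = 0.00201). The mean of all 10 astrocyte markers was 6.01 to 6.07 in controls and 6.03 to 6.19 in knockouts, and Slc1a3, an astrocyte glutamate transporter, changed by -0.10 (limma adjusted p = 0.705). S100b, an astrocyte calcium-binding protein, was at 6.55 ± 0.19 (SD, n = 4) in controls and 7.13 ± 0.44 in knockouts, with knockout 4, the highest array for Phgdh too, at 7.67. Its change of 0.57 ± 0.18 (SE) did not pass (limma adjusted p = 0.0755), but did without knockout 1 (0.0433), knockout 2 (0.0306) or control 3 and knockout 2 (0.0266). Changes of the 10 markers ran from -0.70 to 1.28, with a median of -0.06. None was called lower with all arrays. However, 1 was lower without control 3, without control 3 and knockout 2 (also with control 1 left out), and with the replicate block. The part of astrocyte RNA in the rise of Psat1 and Phgdh was not tested.

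**Figure D2:**
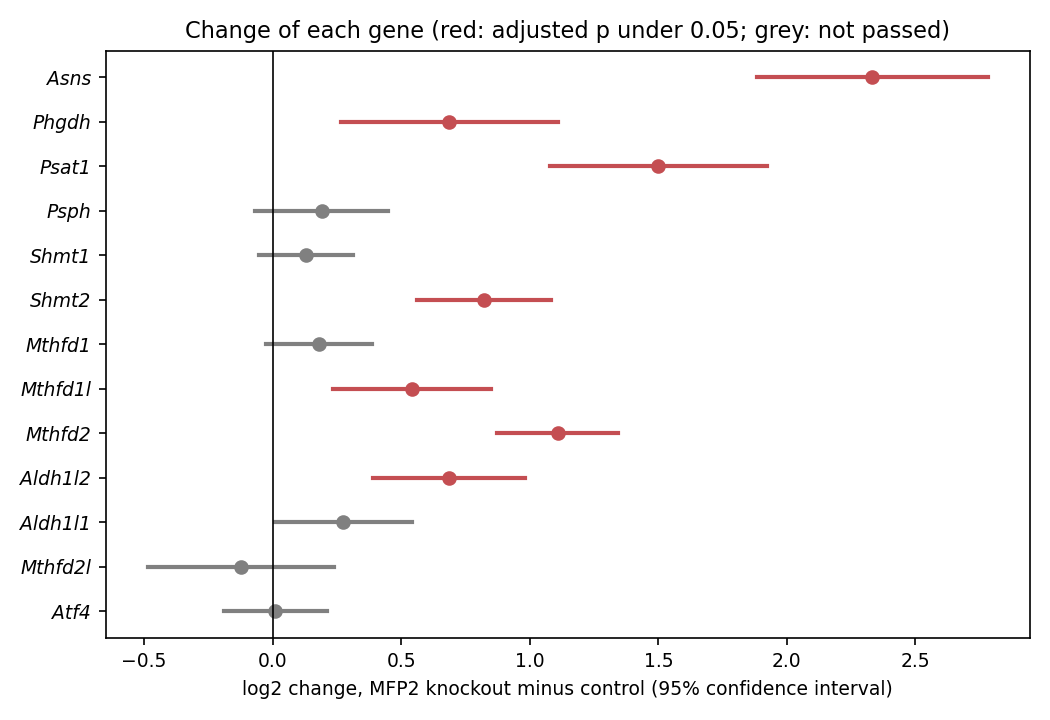
Log2 change from control to MFP2 knockout with its 95% confidence interval for the 10 genes, the paralogs Aldh1l1 and Mthfd2l, and Atf4; red marks an adjusted p under 0.05. Asns stands at 2.33, and the interval of Atf4 runs from -0.19 to 0.21.

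All 4 genes for mitochondrial folate enzymes among the 10 rose. Shmt2, which takes the carbon from serine, was at 7.27, 7.72, 7.44 and 7.34 in controls and at 8.21, 8.13, 8.52 and 8.19 in knockouts. The groups were 0.41 apart, and the change was 0.82 ± 0.12 (SE, limma adjusted p = 0.00109, n = 4 and 4). Mthfd2, the dehydrogenase and cyclohydrolase of the next steps, was at 6.39, 6.60, 6.75 and 6.34 in controls and at 7.71, 7.48, 7.63 and 7.71 in knockouts. It showed the narrowest knockout spread of these 4 genes (SD 0.11) and a gap of 0.72 between the groups. Its change was 1.11 ± 0.11 (SE, limma adjusted p = 0.000222, n = 4 and 4).

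Mthfd1l, the synthetase that releases formate, was at 6.93, 6.77, 6.86 and 6.69 in controls and at 7.09, 7.14, 7.39 and 7.81 in knockouts. The groups were 0.16 apart and knockout 4 was highest. Its change of 0.54 ± 0.14 (SE, limma adjusted p = 0.0303, n = 4 and 4) lost the call without control 1, control 2, control 3, control 4 or knockout 3 (adjusted p = 0.0505 to 0.0877), without control 1, control 3 and knockout 2 together (0.0721) and by the plain test (0.159). Without knockout 4 it was 0.39 and kept the call. Aldh1l2, which oxidises formyl-tetrahydrofolate in mitochondria, was at 5.52, 5.69, 6.07 and 5.71 in controls and at 6.35, 6.52, 6.69 and 6.17 in knockouts. Control 3 lay 0.11 below knockout 4. The change was 0.69 ± 0.14 (SE, limma adjusted p = 0.00667, n = 4 and 4), with adjusted p = 0.0844 by the plain test.

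The cytosolic counterparts did not pass. Shmt1 was at 6.32, 6.35, 6.33 and 6.17 in controls and at 6.44, 6.36, 6.39 and 6.51 in knockouts. The groups were separated by 0.01, and the change of 0.13 had a 95% confidence interval of -0.05 to 0.31 (limma adjusted p = 0.432, n = 4 and 4). Mthfd1, which carries the dehydrogenase, cyclohydrolase and synthetase activities in 1 cytosolic protein, was at 7.05, 7.08, 7.02 and 7.14 in controls and at 7.20, 7.10, 7.24 and 7.47 in knockouts. The groups overlapped, with a change of 0.18 and an interval of -0.03 to 0.39 (limma adjusted p = 0.320, n = 4 and 4). Aldh1l1, the cytosolic relative of Aldh1l2, changed by 0.27 (0.01 to 0.54, limma adjusted p = 0.221), and Mthfd2l, a mitochondrial relative of Mthfd2, by -0.12 (-0.49 to 0.24, limma adjusted p = 0.763).

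Whether a mitochondrial enzyme gene changed more than its counterpart was tested on the difference of their log2 values within each array, which no shift of a whole array affects. The value of a difference depends on the probes, so only its change is read. The change can depend on them too, because changes of dim genes are understated. By control mean, Shmt1 (6.29), Mthfd2l (6.02) and Aldh1l1 (4.99) were dimmer than Shmt2 (7.44), Mthfd2 (6.52) and Aldh1l2 (5.75). Mthfd1 (7.07) was brighter than Mthfd2 and Mthfd1l (6.81). The part of the probes in unequal changes was not tested. For 5 pairs the exact two-sided permutation test of 4 against 4 arrays cannot give a p below 0.0286. Shmt2 minus Shmt1 was 1.15 ± 0.18 (SD, n = 4) in controls and 1.84 ± 0.20 in knockouts, a change of 0.69 (exact permutation p = 0.0286, adjusted over 5 pairs 0.0357). Mthfd2 minus Mthfd1 went from -0.55 ± 0.23 to 0.38 ± 0.11, a change of 0.93, and Mthfd2 minus Mthfd2l from 0.50 ± 0.26 to 1.73 ± 0.05, a change of 1.23, both with the same exact p. In these 3 pairs every knockout array was above every control array. Mthfd2l was highest in control 3, at 6.61. Without that array the change of Mthfd2 minus Mthfd2l was 1.11 (adjusted exact p = 0.0476).

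For Mthfd1l minus Mthfd1 the difference went from -0.26 ± 0.15 (SD, n = 4) to 0.10 ± 0.19, a change of 0.36 (exact permutation p = 0.0286, adjusted 0.0357). Control 1 and knockout 1, at -0.12 and -0.10, nearly touched. The adjusted exact p was 0.0714 without any 1 of the controls and 0.0571 without knockout 4, where the change was 0.29. Aldh1l2 minus Aldh1l1 overlapped, at 0.75 ± 0.25 in controls and 1.16 ± 0.38 in knockouts (change 0.41, exact permutation p = 0.143). Knockout 4 was the lowest knockout there, at 0.60. Without knockout 4 the change was 0.60 (adjusted exact p = 0.0357). Without any 1 other array it was 0.30 to 0.48 and did not pass (adjusted exact p = 0.143 to 0.286).

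**Figure D3:**
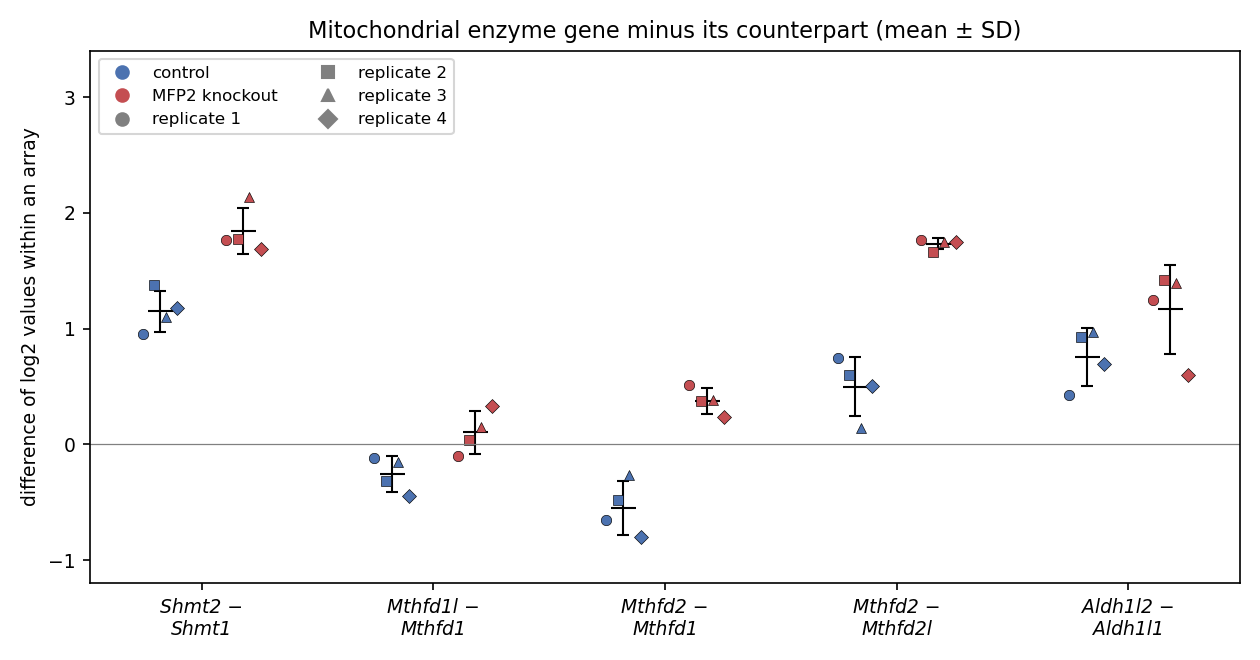
Difference of log2 values of a mitochondrial enzyme gene and its counterpart in each array, with the mean ± SD of 4 controls (blue) and 4 knockouts (red). The knockouts lie above the controls for the first 4 pairs, and overlap with them for Aldh1l2 minus Aldh1l1 because knockout 4 lies at 0.60.

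The arrays of a group did not deviate alike for all 7 risen genes. Control 3 was above the control mean for 6 of the 7 and highest control for 5 of them, by 0.79 for Asns and 0.42 for Psat1, but not for Shmt2 (-0.01). Control 4 was below the control mean for all 7. Knockout 2 was the lowest knockout for 4 of the 7. Knockout 4 stood 0.60 above the knockout mean for Phgdh and 0.45 for Mthfd1l, and also carried the highest Mthfd1 and Shmt1, but was 0.26 below the mean for Aldh1l2. The mean log2 value of 15 DNA replication and mitosis genes was 7.25 in knockout 4, 6.50 to 6.79 in the other knockouts and 6.39 to 6.52 in controls. The part of cycling cells in the values of knockout 4 was not tested. Without knockout 4 the change of Phgdh was 0.49 (limma adjusted p = 0.0748).

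**Figure D4:**
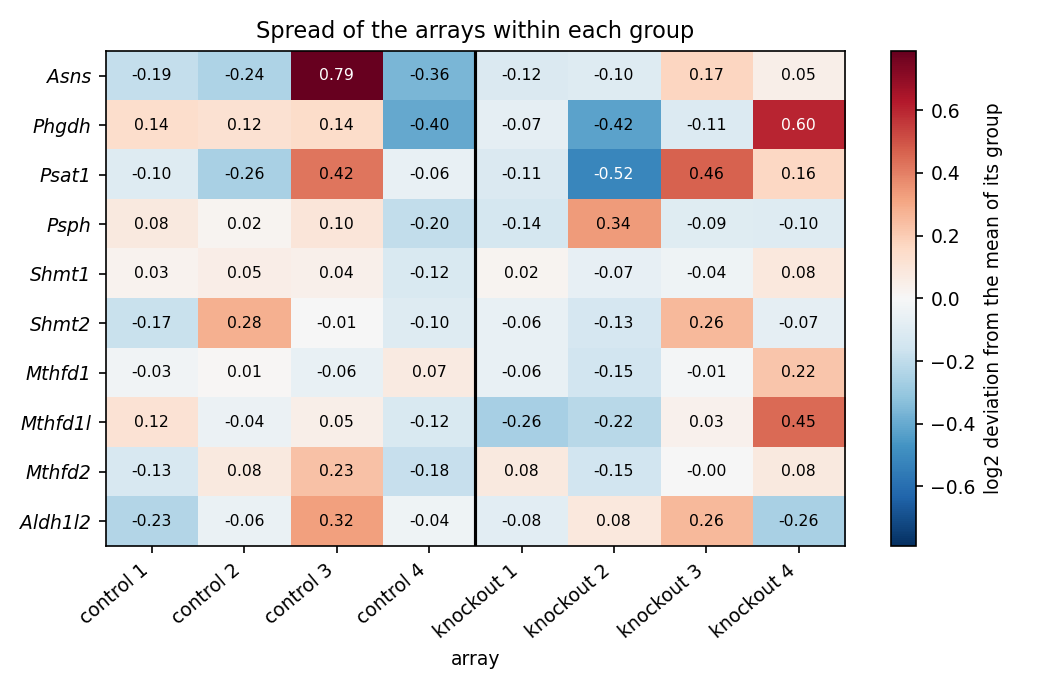
Deviation of each array from the mean of its own group, in log2 units, for the 10 genes; red is above and blue below the group mean. Control 3 deviates by 0.79 for Asns, and knockout 4 by 0.60 for Phgdh and 0.45 for Mthfd1l.

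Genes around asparagine synthesis moved in both directions. Of 8 measured genes for aspartate, glutamate, glutamine and asparagine handling 2 were higher and 1 lower, with a median log2 change of 0.17. Got1, the cytosolic aspartate transaminase, was at 7.35 to 7.74 in controls and 8.65 to 8.90 in knockouts. Its rise was 1.16 ± 0.10 (SE, limma adjusted p = 0.000169). Glul, which makes the glutamine that donates the nitrogen, fell by 0.69, from 11.55 ± 0.11 (SD, n = 4) to 10.86 ± 0.15 (limma adjusted p = 0.00103). Asrgl1, an asparaginase, was higher by 0.46 (limma adjusted p = 0.0338), and this call was lost without control 2 (0.0976), control 4 (0.0999), knockout 2 (0.0660) or knockout 4 (0.0924), without control 3 and knockout 2 (0.0758), with array weights (0.0520) and with the replicate block (0.0749). Without those arrays 1 gene was higher. Under quantile normalization or cyclic loess 2 were lower.

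The glycolysis list, with steps before and after the branch to serine, held 14 measured genes. Of these 10 rose and 0 fell, with a median log2 change of 0.74 (1 lower at an unadjusted p under 0.05, 0 lower by the plain test). Tpi1, triose phosphate isomerase, rose by 1.04 ± 0.12 (SE), Aldoa, an aldolase, by 0.99 ± 0.11, Pgam1, the mutase that consumes the same phosphoglycerate as Phgdh, by 0.90 ± 0.10 and Pfkl, a phosphofructokinase, by 0.88 ± 0.10 (limma adjusted p = 0.000292 to 0.000441). Of 10 transporters of serine, glycine and neutral amino acids 5 were higher and 0 lower, with a median of 0.40 (0 lower also at an unadjusted p under 0.05 and by the plain test). Slc7a5, the large neutral amino acid transporter, rose by 0.98 ± 0.11 (SE, limma adjusted p = 0.000290) and its partner chain Slc3a2 by 0.40, while the cystine transporter Slc7a11 rose by 0.53 and the glycine transporter Slc6a9 by 0.45. Without control 1, control 3 and knockout 2 together 2 transporters were higher, and Slc6a9 (adjusted p = 0.110) and Slc3a2 (0.0666) were not called. Slc3a2 was also not called after cyclic loess (0.121).

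Few genes that use serine and folate downstream passed. By limma 0 of 10 measured genes of glycine cleavage and serine use passed (1 higher at an unadjusted p under 0.05, 0 by the plain test), with a median change of 0.00. Gcsh, the carrier protein of glycine cleavage, changed by 0.47 (limma adjusted p = 0.0606) and passed without control 1 (0.0232) and with dim genes left out (0.0498), and Gldc, its decarboxylase, by -0.12. Of 11 measured genes of the cytosolic folate and methionine cycle 0 passed (2 higher and 2 lower at an unadjusted p under 0.05, 0 by the plain test), with a median of 0.13. Mtr, methionine synthase, changed by -0.37 (limma adjusted p = 0.0700), and passed as lower without control 3 (0.00901), without control 3 and knockout 2 (0.0193), after quantile normalization (0.0386), with array weights (0.0449) and with the replicate block (0.0386). Tyms, thymidylate synthase, changed by 0.36 (limma adjusted p = 0.138).

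Among 8 other genes of mitochondrial folate metabolism 1 was higher, with a median of 0.04: Sardh, sarcosine dehydrogenase, by 0.50 ± 0.09 (SE, limma adjusted p = 0.00321). Without knockout 2 the count was 2. Of 12 measured purine synthesis genes 1 was higher, with a median of 0.22: Adssl1, an adenylosuccinate synthase, by 0.84 ± 0.14 (SE, limma adjusted p = 0.00251), and 6 were higher at an unadjusted p under 0.05. The count was 2 without control 2, 4 without knockout 1, 3 after quantile normalization, 4 after cyclic loess and 2 with the replicate block. It was 0 without control 1, control 3 and knockout 2, where Adssl1 had limma adjusted p = 0.0549. By the plain test it was also 0, and Adssl1 had adjusted p = 0.0611. Of 15 DNA replication and mitosis genes 0 passed by limma (6 higher at an unadjusted p under 0.05, 0 by the plain test), with a median of 0.36. Without control 2 the count was 1, without knockout 1 or knockout 2 it was 2, and with the replicate block 2. Ccnb2, a mitotic cyclin, changed by 0.69 (limma adjusted p = 0.0533) and passed without knockout 1 (0.0137), after quantile normalization (0.0496) or cyclic loess (0.0491), with array weights (0.0458), with dim genes left out (0.0433) and with the replicate block (0.0235). Bub1, a mitotic checkpoint kinase, changed by 0.72 (limma adjusted p = 0.0885) and passed without knockout 2 (0.0295) and without control 3 and knockout 2 (0.0344).

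Atf4 itself was at 9.18, 9.28, 9.21 and 9.47 in control 1 to control 4 and at 9.22, 9.37, 9.33 and 9.28 in knockout 1 to knockout 4. The groups overlapped, and the change of 0.01 had a 95% confidence interval of -0.19 to 0.21 (limma adjusted p = 0.968, n = 4 and 4). ATF4 is controlled mainly at translation, which an array of transcripts does not measure. Of 19 measured genes for ATF4, its kinases, partners and other targets 6 were higher and 0 lower, with a median of 0.18 (1 lower at an unadjusted p under 0.05, 0 lower by the plain test). Atf5, a related factor, rose by 0.84 ± 0.14 (SE, limma adjusted p = 0.00215), Chac1, which degrades glutathione, by 0.83 ± 0.13, Sesn2, a stress-induced inhibitor of mTORC1, by 0.78 ± 0.12 and Stc2, a stanniocalcin, by 0.60 ± 0.13. Without control 1, control 3 and knockout 2 Stc2 was not called (adjusted p = 0.0625). Without knockout 4, and after quantile normalization, 1 gene was lower, and by the plain test 1 was higher.

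**Figure D5:**
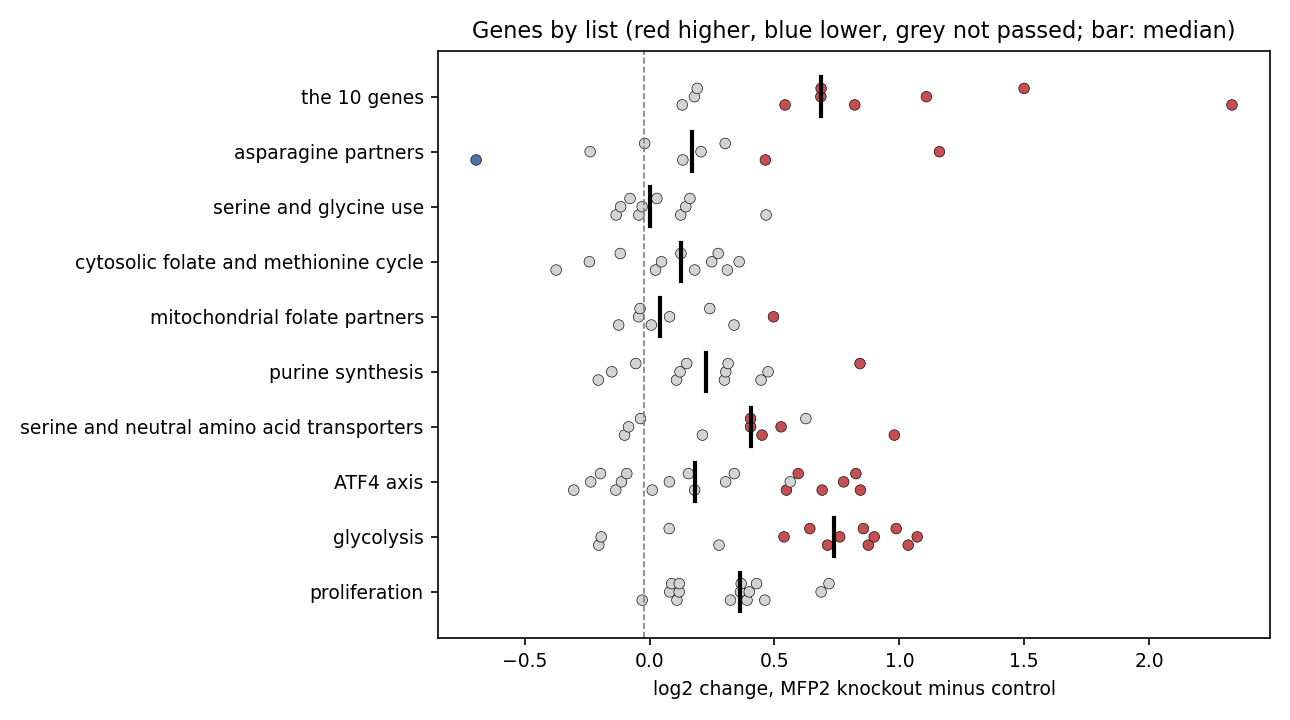
Log2 change of every measured gene of the 10 genes and of the 9 related lists, red where higher, blue where lower and grey where the adjusted p did not pass; the black bar is the median of a list and the dashed line the median of all genes (-0.02). The medians of the 10 genes (0.69) and of glycolysis (0.74) lie furthest to the right.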

How the data were processed

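The authors deposited a log2 value for each probe set and array. The submitters' processing notes name RMA, with no software or chip library, and the log base was inferred from the range, 2.04 to 13.99. RMA equalises arrays, which hides a shift common to all genes, and it understates changes of dim genes. Per the labels' protocols, 5.775 ng of RNA was used per array and the RNA integrity number was 8 or higher. The RNA was amplified, which adds noise. Of 28874 probe sets, 21789 had 1 gene symbol, 1621 several and 5464 none; 21698 matched a RefSeq table by gene number. The 19938 genes were fitted with limma 3.58.1 in R 4.3.3 (lmFit, eBayes, no covariate, no filter), knockout minus control. The pipeline was tested on simulated data. Array medians lay between 6.03 and 6.15, and 4 arrays per group limit the precision.

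Genes singled out for their values and for outlier flags were the 10 genes, Hsd17b4, Atf4, Mthfd2l, Aldh1l1 and sex-check genes. Added were up to 4 called genes of each pathway list by adjusted p, or the 2 of lowest p where none passed. From each cell type list came the 2 brightest and up to 4 called markers, and not all of these markers are named above. The genes and lists were chosen with earlier results of these data known. List genes without a probe set of their own are not analysed here. Alternatives were a filter on dim genes (mean under 5), 3 further scalings, other probe set rules, a robust prior, array weights, the replicate block, arrays left out, stricter thresholds (adjusted p under 0.01, or 1.5-fold as well) and a plain two-sample test. Python 3.11.15 and matplotlib 3.10.9 drew the figures.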

Additional observations from a re-analysis of the deposited data

Results flagged for a closer look

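Single arrays stood apart from the other 3 of their group, by a gap to the nearest array that passed Dixon's 95% critical value, in 13 of 138 groups of 4 values examined. Chance alone gives about 1 in 20 for independent groups. The groups here share the same 8 arrays, and the flags at Xist, Eif2s3y, Kdm5d and Uty all come from control 1. No excess is read from the count. Among the 10 genes these were Asns in control 3 (6.09, 0.98 above the next control), Phgdh in control 4 (5.59, below the others), Psph in knockout 2 (8.14, above the others) and Shmt1 in control 4 (6.17, below the others). Among related genes, Mtr in control 3 (8.05) was low and Chac1 in knockout 4 (7.63) was high. Among markers, Eno2 (6.11) and Flt1 (6.53) were high in control 3, and Csf1r was low in knockout 3 (12.26). Control 1 stood apart with low Xist (6.80) and high Eif2s3y (8.14), Kdm5d (7.41) and Uty (6.49).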

How the results depend on the processing

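The number of the 10 genes called higher was 5 to 7 when 1 array was left out and 4 by the plain two-sample test. Over all genes it was 753 to 1162 and 377 in these settings, against 1073 with all arrays by limma. Of the 10 genes 0 were lower under all 22 alternatives. Asns, Psat1, Shmt2 and Mthfd2 kept direction and call under each of them, with changes of 2.21 to 2.67, 1.34 to 1.83, 0.74 to 0.91 and 1.05 to 1.24. Phgdh lost its call under 11 alternatives, Mthfd1l under 9 and Aldh1l2 under 1, and Psph, Shmt1 and Mthfd1 were not called under any. Single left-out arrays gave changes of 0.60 to 0.79 for Aldh1l2. For the unequal change of Mthfd1l minus Mthfd1 they gave 0.29 to 0.43, and for Aldh1l2 minus Aldh1l1 0.30 to 0.60; without control 1, control 3 and knockout 2 together these were 0.51 and 0.27. With 3 arrays against 3 or fewer, and with pairing by number, the exact test could not reach its threshold, so those settings give values alone. Same-numbered arrays did not deviate together (r = -0.06 to 0.16 over all genes, above 0.1 in 1 of 4 pairs), so the numbers were not taken as pairs; with the replicate block 6 of the 10 genes were higher. It also moved the count of higher genes to 1 among the asparagine partners, 2 in purine synthesis, 2 in replication and mitosis and 5 on the ATF4 list, and that of lower genes to 1 in the cytosolic folate cycle. For the other genes singled out, 59 values lost a call, 21 gained one and 1102 kept theirs. Detection calls were not used here, so the level at which a probe set stands above background is unknown.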

Other observations

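As a description of likeness, genes outside the 10 were ranked by Pearson's r with the mean standardised profile of the 7 risen genes over the 8 arrays. The highest were Nceh1, a cholesteryl ester hydrolase (0.998), the ribosomal protein gene Rpl7 (0.998), the glycolipid transfer protein gene Gltp (0.997), the carboxypeptidase gene Cpd (0.996) and Ank, a pyrophosphate transporter (0.996). A gene that separates the groups scores high here. For deviations from the group means the highest were Dcaf12l2 (0.985), Stim2 (0.982), Nceh1 (0.977), Vmn2r26 (0.975) and Bhmt2 (0.974). With 8 arrays and 19938 genes, high values arise in both rankings, and nothing is read from them.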
